A study of Homo sapiens with 6 samples.

Results

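The genes that cut and polyadenylate messenger RNA, export it from the nucleus and degrade it were compared between 3 control and 3 siMTA1 libraries of HCT116, an established human colorectal carcinoma line of epithelial morphology. The set holds 52 genes, chosen by their symbols for these roles, of the 36651 genes in the deposited table. All 52 were found there, and all 52 were among the 12141 genes tested, those averaging 1 FPKM or more across the 6 libraries (FPKM scales the fragments of a gene by its length and by the depth of the library). MTA1 encodes a subunit of the NuRD chromatin remodelling and deacetylase complex, and the study asked how the MTA1 protein acts on RNA and on gene expression and splicing. PolyA RNA was sequenced from directional paired-end libraries.

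All libraries come from 1 cell line, and no drug, dose or time is given for either group. The labels call the targeted libraries siMTA1 or siMTA in some fields and CrMTA1 in another, and the controls WT or Ctrl. Whether RNA interference or a change to the genome was used, and what the control cells received, is therefore uncertain, and siMTA1 is used here only as the name of the group. Nothing says that the 3 libraries of a group came from separate cultures, so every p-value measures the spread between these libraries, which may be technical.

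MTA1 itself stood at 65.90, 67.61 and 66.74 FPKM in the control libraries and at 44.55, 43.98 and 47.97 FPKM in the siMTA1 libraries. All 3 siMTA1 libraries were below all 3 controls, and their mean was 68.2% of the control mean. MTA1 fell by 0.54 on the log2 scale (SE 0.06, limma adjusted p = 0.000376), and the exact two-sided permutation test gave p = 0.1, the smallest value that 3 libraries against 3 allow.

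Over all 12141 tested genes, 2207 (18.2%) were called changed at a limma adjusted p under 0.05, 744 higher with siMTA1 (6.13%) and 1463 lower (12.1%). The 2 groups of libraries did not overlap in 39.1% of tested genes, 13.2% with siMTA1 above the controls and 25.9% below. The median log2 fold change of all tested genes was -0.05, and another scaling of the libraries moved the higher share of all calls from 33.7% to 51.6% with upper-quartile scaling, 53.0% with quantile normalization and 54.8% with median centring. Log2 expression correlated across genes at 0.994 to 0.997 between libraries of 1 group and at 0.988 to 0.992 between groups. Of 8 epithelial markers 7 were at 1 FPKM or more, VIL1 being the exception at 0.02 FPKM, and their summed level was 6597 to 6917 FPKM in controls and 5700 to 6347 FPKM with siMTA1. Most of that sum came from KRT19, KRT8 and KRT18, of which KRT8 and KRT18 were called lower (-0.29 and -0.25, limma adjusted p = 0.0148 and 0.0336), while CDH1 was called higher (0.27, 0.00874) and EPCAM, KRT19, CLDN4 and CDX2 did not pass. Of 11 markers of immune, fibroblast and endothelial cells 10 were below 0.2 FPKM, and the sum was 2.15 to 2.27 FPKM in controls and 2.36 to 2.89 FPKM with siMTA1. Nearly all of it was COL1A1, with a mean of 1.89 FPKM in controls and 2.37 FPKM with siMTA1, which was not called (limma adjusted p = 0.0671). The part of these markers in the results was not tested. In bulk RNA, fewer cells of a kind and less RNA per cell cannot be told apart.

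A messenger RNA gets its 3' end when a large nuclear complex recognises the polyadenylation signal, cuts the transcript and adds a poly(A) tail. Export factors and the exon junction complex are loaded onto the transcript in the nucleus, and the junction complex later lets nonsense-mediated decay recognise transcripts with a premature stop codon. Bulk turnover in the cytoplasm starts with shortening of the tail by the CCR4-NOT complex and goes on either by decapping and digestion from the 5' end, or by the RNA exosome from the 3' end, and the nuclear exosome trims and removes many other RNAs.

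Most of these 52 genes were close to the control level in the siMTA1 libraries. Called lower were 6 members: the exosome subunits EXOSC1, EXOSC4, EXOSC5 and EXOSC6, the export adaptor ALYREF and the deadenylase CNOT8. Called higher was 1 member, CPSF6, a subunit of the cleavage factor that binds upstream of the cut. The other 45 did not pass the test. The 7 calls are 13.5% of the members, below the 18.2% of all tested genes. At an unadjusted p under 0.05 there were 12 members (23.1%), against 35.0% of all tested genes. In 22 of the 52 (42.3%) the groups did not overlap, 6 of them with siMTA1 above and 16 below, against 39.1% of all tested genes. The median log2 fold change of the members was -0.02, their range was -0.54 to 0.27, and 31 of the 52 lay within 0.1 of no change in either direction. Of all 12141 tested genes 5300 lay within the same limits. The plot of all members by role shows the 2 exosome subunits EXOSC4 and EXOSC5 apart from the rest.

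**Figure D1:**
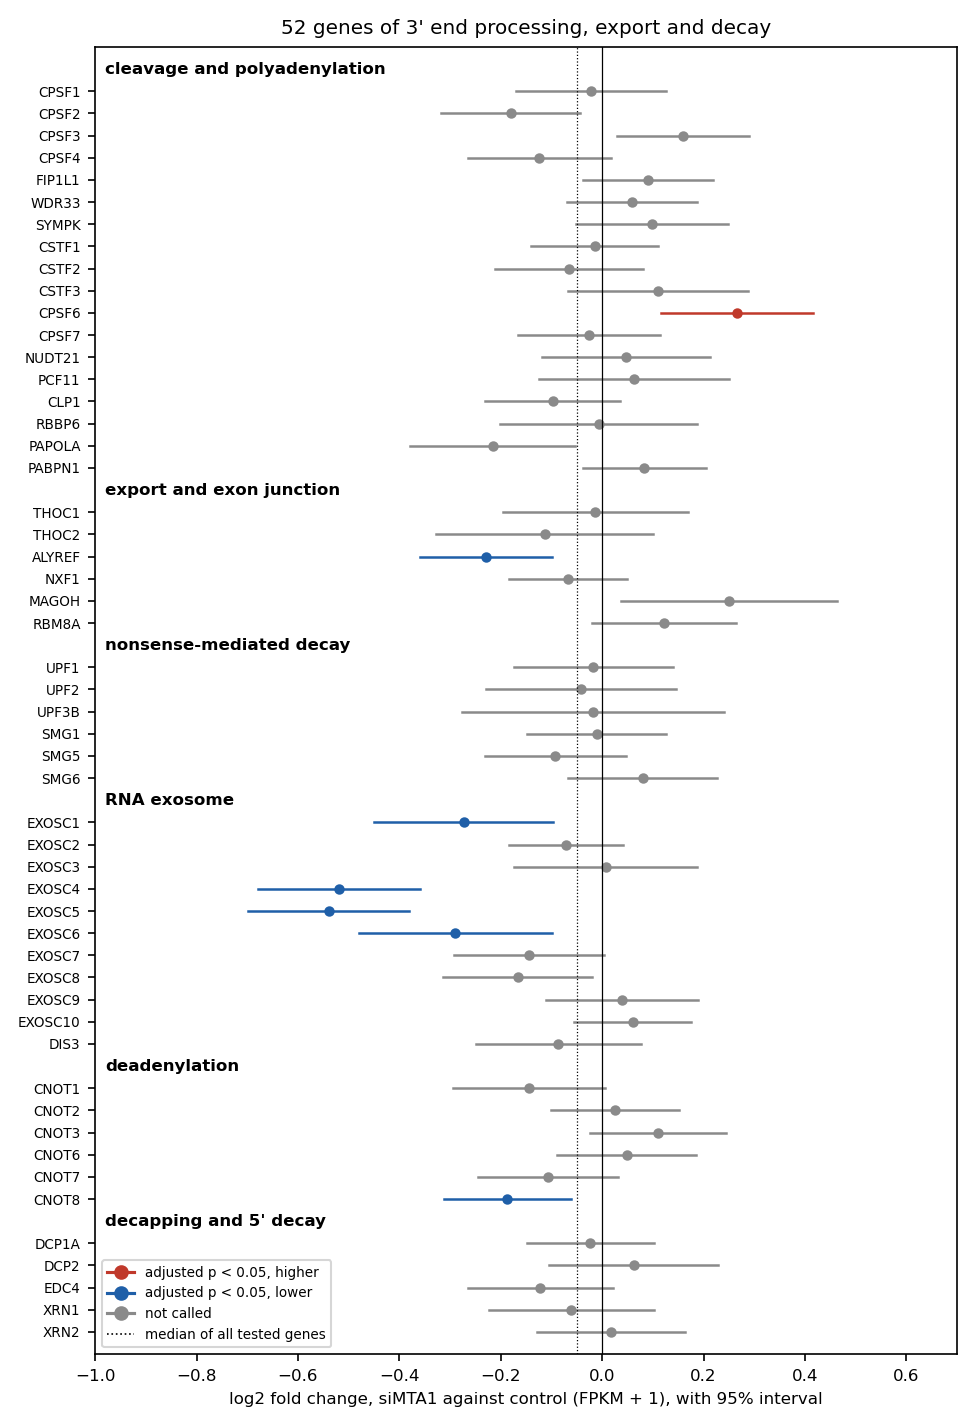
Log2 fold change of each of the 52 genes, siMTA1 against control, on the log2(FPKM + 1) scale (horizontal axis), with its 95% interval from limma, 3 libraries a group. Genes are grouped by role, blue and red mark genes called lower and higher, and the dotted line is the median of all tested genes at -0.05. EXOSC4 at -0.52 and EXOSC5 at -0.54 lie furthest to the left, and CPSF6 at 0.27 is the 1 gene called higher.

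Levels of the members ran from 1.87 FPKM (DCP2, the decapping enzyme) to 94.5 FPKM (MAGOH, of the exon junction complex), with a median of 15.3 FPKM. The steps between low values in the table imply 42900000 to 66700000 counted fragments a library, so that the member with the fewest fragments in any library, CLP1, would still have had 631, a counting error of 3.98%. Summed over the 52 genes, the level was 1117 to 1178 FPKM in controls and 1093 to 1145 FPKM with siMTA1, ranges that overlap. Control library 1 held the highest level of 19 of the 52 members, against 26.1% of all tested genes, and control library 3 the lowest of 14, against 11.5%.

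The 18 genes of cleavage and polyadenylation held the 1 higher call (5.56%) and no lower call, against 6.13% and 12.1% of all tested genes. Their median log2 fold change was 0.02. The groups did not overlap in 38.9% of the 18, against 39.1% of all tested genes. CPSF6 pairs with NUDT21 in cleavage factor I, which binds UGUA elements and takes part in the choice between polyadenylation sites. Its level was 10.59, 9.19 and 9.06 FPKM in the controls and 11.98, 11.71 and 11.53 FPKM with siMTA1. Every siMTA1 library was above every control, although control library 1 lay nearer to the siMTA1 libraries than to the other controls. CPSF6 rose by 0.27 on the log2 scale (SE 0.07, limma adjusted p = 0.0250). The call was lost without control library 2 (adjusted p = 0.0999), control library 3 (0.0673), siMTA1 library 1 (0.0710) or siMTA1 library 2 (0.0717), and it was kept in 13 of 18 alternative settings in all. The partner subunits gave values near the controls, NUDT21 a log2 fold change of 0.05 (95% interval -0.12 to 0.21) and CPSF7, which can take the place of CPSF6, -0.03 (-0.17 to 0.12).

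CPSF6 lies on chromosome 12 at 69239537 to 69274358 on the plus strand (GRCh38, GENCODE 29, ENSG00000111605.16). The stretch before its RefSeq start, printed to set the only higher member beside lower ones further on, runs from 150 to 33 bases before that start and stops where GENCODE exons begin. It is given as RefSeq has it in GRCh38.p14 at chr12:69239419-69239536, plus strand, 5' to 3', with a GC box (GGGCGG or its reverse complement) in capitals.
CPSF6: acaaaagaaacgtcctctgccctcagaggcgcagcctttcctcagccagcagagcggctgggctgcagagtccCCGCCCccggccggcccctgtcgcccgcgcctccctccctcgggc
A GC box was found within 250 bases before the start, on either strand, in 85.1% of the 47 members with a RefSeq window and in 46.2% of all 27305 genes with one, so the match is common among these genes. It does not set CPSF6 apart, since 3 of the 4 lower members with a window, ALYREF, EXOSC5 and CNOT8, had it too. The letters CCAAT were likewise found in the windows of CPSF6, ALYREF and EXOSC5.

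Among the other subunits of the cleavage complex, FIP1L1, which bridges the complex and poly(A) polymerase, had the highest level of this role. It stood at 81.43, 79.23 and 75.54 FPKM in controls and at 82.92, 87.92 and 80.97 FPKM with siMTA1. These groups overlapped, and the log2 fold change of 0.09 did not pass (limma adjusted p = 0.287). FIP1L1 shares 1017 exonic bases on the same strand with the gene model AC058822.1, so reads could have been split between them. Nearest to the threshold were PAPOLA, the poly(A) polymerase, at -0.22 (adjusted p = 0.0655), CPSF2, the inactive relative of the cutting subunit, at -0.18 (0.0685), and CPSF3, the endonuclease that cuts the transcript, at 0.16 (0.0853). In all 3 of them the groups did not overlap. The remaining 11 genes, which include the signal-binding subunits CPSF4 and WDR33, the scaffolds CPSF1 and SYMPK, the CSTF1, CSTF2 and CSTF3 subunits that bind downstream of the cut, PCF11 and CLP1 of cleavage factor II, RBBP6 and the nuclear poly(A)-binding protein PABPN1, lay between -0.12 (CPSF4) and 0.11 (CSTF3). PABPN1 shares 653 exonic bases on its own strand with the read-through gene BCL2L2-PABPN1, so its value is uncertain.

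In the 6 genes of export and the exon junction, 1 was lower and none was higher, against 12.1% and 6.13% of all tested genes. Their median log2 fold change was -0.04. The groups did not overlap in 3 of the 6, against 39.1% of all tested genes. ALYREF, the adaptor that hands transcripts to the export receptor NXF1, stood at 84.61, 88.26 and 85.98 FPKM in controls and at 71.14, 78.41 and 71.07 FPKM with siMTA1. All siMTA1 libraries were below all controls, and the siMTA1 mean was 85.2% of the control mean. ALYREF fell by 0.23 on the log2 scale (SE 0.06, limma adjusted p = 0.0256). That call was lost without control library 2 (adjusted p = 0.1025), control library 3 (0.0526), siMTA1 library 1 (0.0788) or siMTA1 library 3 (0.0716), and was kept in 11 of 18 alternative settings.

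ALYREF lies on chromosome 17 at 81887844 to 81891586 on the minus strand (ENSG00000183684.7) and shares 62 exonic bases with ANAPC11 on the other strand. The libraries are directional, but no label or header says whether the counting used the strand. The 59 bases just before its RefSeq start, at chr17:81891588-81891646 on the minus strand of GRCh38.p14, are shown because they hold the ETS site CCGGAAG more than once (capitals, 5' to 3').
ALYREF: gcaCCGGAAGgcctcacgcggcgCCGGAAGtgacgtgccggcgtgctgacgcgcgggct
An ETS site was found in the 250 bases before the start of 19.1% of members and of 10.2% of all genes, and among the 4 lower members with a RefSeq window ALYREF was the 1 that had it.

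MAGOH, which clamps the exon junction complex onto RNA together with RBM8A, had the highest level and the largest difference of this role. Its values were 98.37, 87.20 and 73.91 FPKM in controls and 103.71, 107.72 and 95.96 FPKM with siMTA1. The groups overlapped because siMTA1 library 3 lay below control library 1, and the difference of 0.25 (SE 0.10) did not pass (limma adjusted p = 0.0943). RBM8A gave 0.12 (adjusted p = 0.202) and the close copy MAGOHB, which is no member, 0.08. NXF1 was at 10.6 FPKM in controls and 10.1 FPKM with siMTA1, a log2 fold change of -0.07 that did not pass although the groups did not overlap. The THO complex subunits THOC1 and THOC2, which couple transcription to export, gave -0.01 and -0.11.

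No gene of nonsense-mediated decay was called among 6, against 18.2% of all tested genes, and the median log2 fold change was -0.02. In none of the 6 were the groups apart, against 39.1% of all tested genes. UPF3B, which links the machinery to the exon junction complex, had the highest level. It stood at 37.55, 39.94 and 35.68 FPKM in controls and at 41.21, 41.98 and 29.75 FPKM with siMTA1. Its siMTA1 libraries lay on both sides of the controls, and the log2 fold change of -0.02 had a 95% interval from -0.28 to 0.24, the widest of the role. SMG5, which brings decay enzymes to marked transcripts, had the largest difference of the role. Its values were 14.59, 15.90 and 16.43 FPKM in controls and 14, 14.79 and 15 FPKM with siMTA1, a log2 fold change of -0.09 (limma adjusted p = 0.319). The helicase UPF1, its partner UPF2, the kinase SMG1 and the endonuclease SMG6 gave -0.02, -0.04, -0.01 and 0.08. UPF3B, UPF2 and SMG1 had their lowest value in siMTA1 library 3, as did THOC1, THOC2, RBBP6 and others. That library held the lowest level of 12 of the 52 members, against 18.2% of all tested genes. For siMTA1 library 2 it was also 12 members, against 25.2%.

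The RNA exosome held 4 of the 6 lower calls. Of its 11 members 4 were lower (36.4%, against 12.1% of all tested genes) and none was higher, with a median log2 fold change of -0.14. In 8 of the 11 the groups did not overlap, 7 with siMTA1 below and 1, the nuclear nuclease EXOSC10, above. Of all tested genes 39.1% were so separated, 25.9% below and 13.2% above. The catalytically inactive core of the human exosome is a ring of 6 subunits under a cap of 3. The cap subunits EXOSC1, EXOSC2 and EXOSC3 carry RNA-binding domains, and the ring alternates RRP41-like subunits (EXOSC4, EXOSC5 and EXOSC6) with RRP42-like subunits (EXOSC7, EXOSC8 and EXOSC9). Nuclease activity comes from DIS3 and EXOSC10. All 3 RRP41-like subunits were called lower, against none of the 3 RRP42-like subunits and 1 of the 3 cap subunits. The split by ring type was made after the values had been seen, and the difference between the types was not tested.

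EXOSC5 stood at 29.50, 29.33 and 33.27 FPKM in controls and at 19.45, 20.72 and 22.24 FPKM with siMTA1. The highest siMTA1 library was well below the lowest control, and the siMTA1 mean was 67.8% of the control mean. EXOSC5 fell by 0.54 on the log2 scale (SE 0.07, limma adjusted p = 0.00152), the largest difference among the 52 members and about as large as that of MTA1. EXOSC4 stood at 33.68, 35.91 and 40.18 FPKM in controls and at 23.96, 25.93 and 25.68 FPKM with siMTA1. Its groups were likewise apart, with a siMTA1 mean at 68.8% of the control mean. EXOSC4 fell by 0.52 on the log2 scale (SE 0.07, limma adjusted p = 0.00206). EXOSC4 lies on chromosome 8 at 144078626 to 144080647 on the plus strand (ENSG00000178896.6) and overlaps an antisense gene by 274 exonic bases. These 2 were the members that kept their call in all 18 alternative settings, with adjusted p-values from 0.000219 to 0.0263 for EXOSC5 and from 0.000160 to 0.0296 for EXOSC4.

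EXOSC6 and EXOSC1 were nearer to the threshold. EXOSC6, the lowest exosome subunit, stood at 4.17, 3.44 and 3.91 FPKM in controls and at 3.28, 3.03 and 2.58 FPKM with siMTA1, with a narrow gap between control library 2 and siMTA1 library 1. It fell by 0.29 on the log2(FPKM + 1) scale (SE 0.09, limma adjusted p = 0.0429), a scale that understates the change of a gene at this level. Without control library 1, control library 3, siMTA1 library 2 or siMTA1 library 3 its adjusted p was 0.109, 0.0916, 0.0948 and 0.115. EXOSC1 stood at 25.22, 25.69 and 24.68 FPKM in controls and at 23.08, 21.01 and 18.21 FPKM with siMTA1. Its controls were close together while its siMTA1 libraries spread widely, and it fell by 0.27 on the log2 scale (SE 0.08, limma adjusted p = 0.0407). Among the runs with 1 library left out, the EXOSC1 call was kept only without siMTA1 library 1 (adjusted p = 0.0225). The adjusted p was 0.0724, 0.122 and 0.0673 when control 1, 2 or 3 was dropped. It was 0.0961 and 0.0946 when siMTA1 library 2 or 3 was. Over all 18 alternative settings the call was kept in 7. With quantile normalization, upper-quartile scaling, TPM or median centring, EXOSC4 and EXOSC5 were the exosome genes called lower, so the count of 4 became 2.

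**Figure D2:**
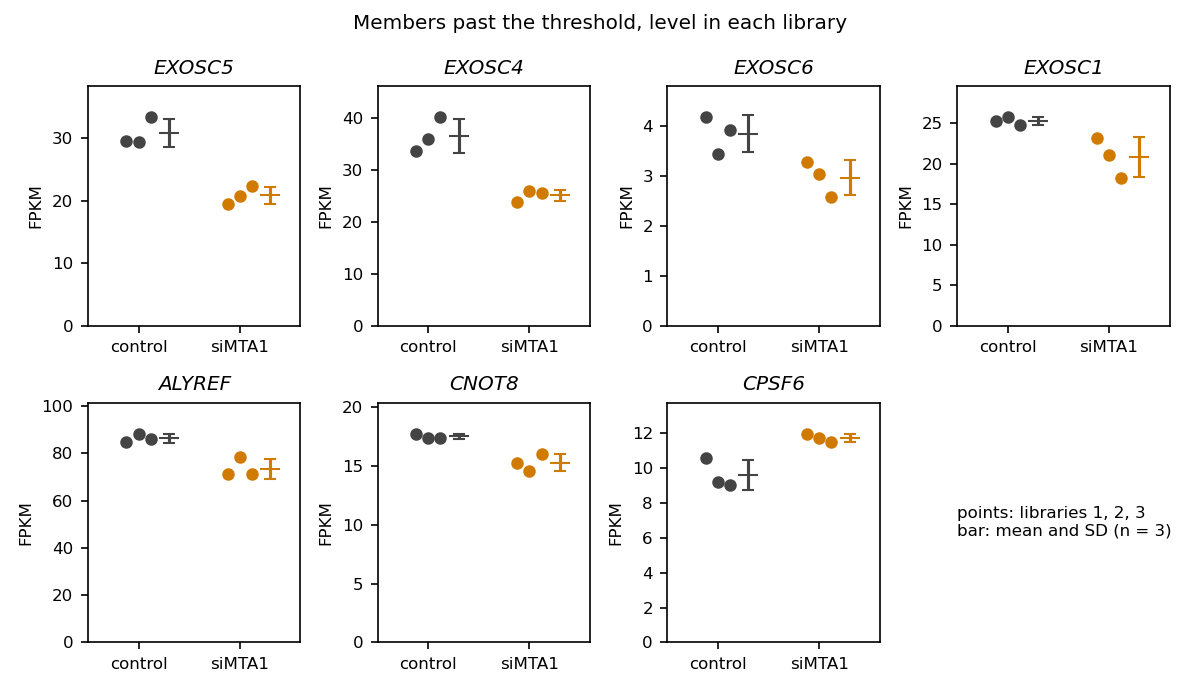
Level in FPKM (vertical axes, each starting at 0) of the 7 members past the threshold in each control (grey) and siMTA1 (orange) library, with the mean and SD of 3 libraries beside the points. The gap between groups is wide for EXOSC5 (highest siMTA1 library 22.24, lowest control 29.33) and narrow for EXOSC6 (3.28 against 3.44).

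EXOSC5 lies on chromosome 19 at 41386374 to 41397479 on the minus strand (ENSG00000077348.8), where 20 of its exonic bases overlap BCKDHA on the other strand. EXOSC6 lies on chromosome 16 at 70246778 to 70251930 (ENSG00000223496.2) and EXOSC1 on chromosome 10 at 97436142 to 97446017 (ENSG00000171311.12), both on the minus strand and both without an exonic overlap. To set a subunit whose call held in every setting beside one whose call was near the threshold, 30 bases around the E-box (CACGTG, capitals) before the RefSeq start of EXOSC5, at chr19:41397431-41397460, and the 150 bases before that of EXOSC6, at chr16:70251941-70252090, are shown from GRCh38.p14, minus strand, 5' to 3'.
EXOSC5: taaacgctaagcCACGTGcggacgcccagg
EXOSC6: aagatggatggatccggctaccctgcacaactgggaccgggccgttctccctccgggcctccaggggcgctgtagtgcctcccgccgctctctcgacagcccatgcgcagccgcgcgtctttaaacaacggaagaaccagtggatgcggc
The E-box of EXOSC5 begins 89 bases before the start, in a stretch that GENCODE 29 already places in an exon. An E-box was found in 10.6% of member windows and 7.73% of all windows, and EXOSC5 was the 1 lower member with it. The EXOSC6 stretch has no capitals because none of the motifs searched was in it. These were the E-box, the ETS site, the GC box, the cyclic AMP response element TGACGTCA (12.8% of members, 2.03% of all genes), CCAAT (48.9% and 37.0%) and TATAAA (6.38% and 13%), on both strands of the 250 bases before the start. A match is a description of letters and not a binding site.

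EXOSC9 had the highest level of the exosome and differed between the groups by less than its spread, at 45.82, 47.54 and 40.27 FPKM in controls and 46.40, 45.33 and 45.33 FPKM with siMTA1. Its siMTA1 libraries fell within the range of the controls, and the log2 fold change of 0.04 had a 95% interval from -0.11 to 0.19. EXOSC8 and EXOSC7 had lower values in every siMTA1 library than in every control without passing the test, at -0.17 (adjusted p = 0.104) and -0.14 (0.151). The cap subunits EXOSC2 and EXOSC3 gave -0.07 and 0.01, and the nucleases DIS3 and EXOSC10 gave -0.09 and 0.06.

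Since the ring is built from pairs, the ratio of the 2 transcripts of each pair was followed within each library, for 3 pairs that were chosen with the values known. The EXOSC4 to EXOSC9 ratio was 0.735, 0.755 and 0.998 in controls and 0.516, 0.572 and 0.567 with siMTA1. The EXOSC5 to EXOSC8 ratio was 1.273, 1.353 and 1.434 in controls and 0.898, 1.034 and 1.189 with siMTA1. In both pairs every siMTA1 library lay below every control, by 0.58 and 0.39 on the log2 scale, and the exact two-sided permutation test gave p = 0.1 for each, the smallest it can give, or 0.15 adjusted over the 3 pairs. The EXOSC6 to EXOSC7 ratio overlapped between groups, at 0.139, 0.1 and 0.127 in controls and 0.121, 0.104 and 0.087 with siMTA1 (exact permutation p = 0.3).

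Summed over the 11 exosome genes, the level was 296.65, 295.76 and 293.45 FPKM in controls and 264.96, 265.11 and 261.79 FPKM with siMTA1. Without EXOSC4 and EXOSC5 the sums were 233.47, 230.52 and 220 FPKM against 221.55, 218.46 and 213.87 FPKM, and the groups then overlapped. The plot of exosome subunits against their control mean shows every library. By siMTA1 mean EXOSC4 and EXOSC5 were lowest, followed by EXOSC6 at 77.2% and EXOSC1 at 82.4% of control, and single libraries of EXOSC6 and EXOSC1 interleaved.

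**Figure D3:**
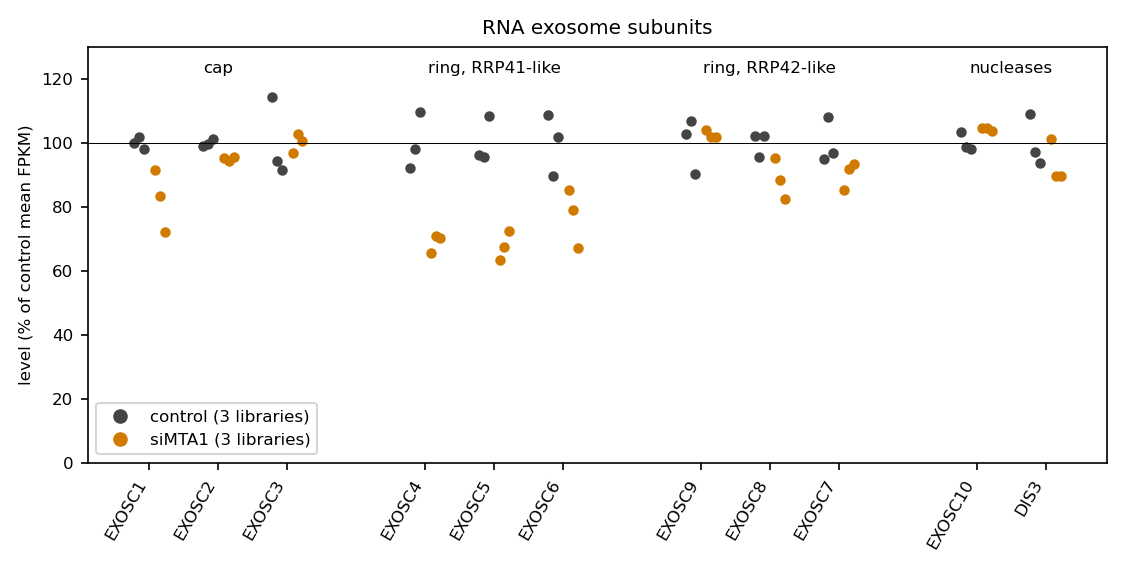
Level of each exosome subunit in each library as a percentage of its own control mean (vertical axis), for control (grey) and siMTA1 (orange) libraries, 3 of each, with subunits ordered by their place in the complex. The siMTA1 means of EXOSC4 and EXOSC5 are at 68.8% and 67.8%, whereas those of EXOSC9 and EXOSC10 are at 102.6% and 104.3%.

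Among the 6 genes of the CCR4-NOT deadenylase, 1 was lower and none was higher, against 12.1% and 6.13% of all tested genes. The median log2 fold change was -0.04, and the groups did not overlap in 4 of the 6, against 39.1% of all tested genes. CNOT3, a regulatory subunit, had the highest mean level over the 6 libraries. It stood at 15.88, 17.58 and 17.40 FPKM in controls and at 17.84, 18.24 and 19.01 FPKM with siMTA1, and its log2 fold change of 0.11 did not pass (limma adjusted p = 0.222), although the groups did not overlap. CNOT8, 1 of the interchangeable nuclease subunits, had the largest difference of the role. It stood at 17.72, 17.38 and 17.39 FPKM in controls and at 15.24, 14.55 and 15.98 FPKM with siMTA1. Each siMTA1 library was below each control, and CNOT8 fell by 0.19 on the log2 scale (SE 0.06, limma adjusted p = 0.0457). Leaving out siMTA1 library 3 kept the call (adjusted p = 0.0486), whereas leaving out a control ended it each time (0.0856, 0.128 and 0.0829 for libraries 1, 2 and 3), as did leaving out siMTA1 library 1 (0.103) or 2 (0.146). The call was also lost with each of the 4 other scalings (adjusted p from 0.0602 to 0.106), and it was kept in 6 of 18 alternative settings in all. CNOT8 lies on chromosome 5 at 154857553 to 154876793 on the plus strand (ENSG00000155508.13) and shares 163 exonic bases with FAXDC2 on the other strand. Its close relative CNOT7 gave -0.11 (adjusted p = 0.247), the other nuclease CNOT6 0.05, the scaffold CNOT1 -0.14 (0.155), and the regulatory subunit CNOT2 0.03. In CNOT1 and CNOT7 the groups did not overlap, with siMTA1 below.

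None of the 5 genes of decapping and digestion from the 5' end was called, against 18.2% of all tested genes. The median log2 fold change was -0.02. The groups overlapped in every gene, whereas they did not overlap in 39.1% of all tested genes. XRN2, the nuclear exonuclease that also acts in transcription termination, had the highest level, at 69.31, 65.25 and 61.65 FPKM in controls and 64.93, 63.19 and 70.52 FPKM with siMTA1. Its log2 fold change was 0.02 (95% interval -0.13 to 0.16). EDC4, a scaffold of the decapping complex, had the largest difference of the role, with 13.59, 14.81 and 15.54 FPKM in controls and 13.25, 12.97 and 13.88 FPKM with siMTA1. Its groups overlapped through siMTA1 library 3 and control library 1, and the difference of -0.12 did not pass (limma adjusted p = 0.202). The decapping enzyme DCP2, its activator DCP1A and the cytoplasmic exonuclease XRN1 gave 0.06, -0.02 and -0.06.

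Close copies of members were also near the control level. The log2 fold changes were 0.04 for CSTF2T, -0.01 for UPF3A, -0.05 for CNOT6L and -0.02 for PAPOLG, and none was called. No label or header says how reads shared between such copies were counted, which makes the values of MAGOH, CSTF2 and SMG1, a gene with many partial copies, uncertain.

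Further genes of the same pathways were read from lists. Of 133 such factors 15 were called (11.3%), 2 higher and 13 lower, against 18.2% of all tested genes, and their median log2 fold change was -0.05, as for all genes. The 16 other 3' end factors had 1 lower call, the phosphatase subunit PPP1CA (-0.27, limma adjusted p = 0.0485), and the 14 subunits of Integrator, which cuts small nuclear RNA precursors, had 2, INTS8 (-0.23, 0.0343) and INTS12 (-0.29, 0.0449). Of 27 other export and exon junction genes THOC7, a further THO subunit, was lower, from 90.4 to 72.2 FPKM (-0.32, 0.0219). The lower calls were 6.25%, 14.3% and 3.70% of these lists, against 12.1% of all tested genes, and none of their genes was called higher. The medians of these lists were -0.06, -0.09 and -0.02.

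In the 11 other nonsense-mediated decay factors RUVBL1, an ATPase with many other roles, was the 1 called (lower, -0.18, limma adjusted p = 0.0481), and the median was -0.11. Calls were 9.09% of this list, against 18.2% of all tested genes. Of 13 transcripts known as substrates of this decay, 1 was higher (7.69%, against 6.13% of all tested genes), none was lower and the median was -0.05. The higher one was UPP1, a uridine phosphorylase, at 18.8 FPKM in controls and 23.4 FPKM with siMTA1 (0.30, limma adjusted p = 0.0132). Of 15 exosome cofactors and other 3' exonucleases 1 was lower (6.67%, against 12.1% of all tested genes), none was higher and the median was -0.0041. The lower one was DIS3L, the cytoplasmic exosome nuclease, at 7.72 FPKM in controls against 5.75 FPKM with siMTA1 (-0.37, limma adjusted p = 0.0130).

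Of 14 other deadenylation genes 3 were lower (21.4%, against 12.1% of all tested genes) and the median was -0.06. BTG2, an antiproliferative protein that brings CCR4-NOT to transcripts, stood at 12.71, 14.42 and 14.28 FPKM in controls and 9.71, 9.52 and 10.07 FPKM with siMTA1, and fell by 0.46 on the log2 scale (limma adjusted p = 0.00213). The CCR4-NOT subunit CNOT11 and the BTG2 relative TOB2 were lower as well (-0.22, adjusted p = 0.0257, and -0.21, 0.0478). Of 17 other decapping and P-body genes 3 were lower (17.6%, against the same 12.1%), with a median of -0.07. LSM1, of the cytoplasmic LSM ring that promotes decapping, stood at 39.82, 38.74 and 37.74 FPKM in controls and 31.48, 32.05 and 28.37 FPKM with siMTA1, and fell by 0.33 (0.00755). The scavenger decapping enzyme DCPS and the activator DCP1B were lower too, both at -0.26 (adjusted p = 0.0418 and 0.0438).

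Of 19 factors that direct decay by sequence, 2 were higher and 1 lower, with a median of -0.01. These calls were 15.8% of the list, against 18.2% of all tested genes. ZFP36, which binds AU-rich elements and recruits deadenylases, stood at 12.89, 14.06 and 16.84 FPKM in controls and 22.30, 21.06 and 21.58 FPKM with siMTA1. It rose by 0.55 on the log2 scale (limma adjusted p = 0.00379). AGO2, the slicing Argonaute, was higher (0.22, adjusted p = 0.0451) and RC3H2, a roquin, lower (-0.22, 0.0445). Of the 16 called genes on these lists BTG2, LSM1 and ZFP36 kept their call in all 18 alternative settings. UPP1 lost it without siMTA1 library 2 (0.0527), THOC7 without siMTA1 library 2 or 3 (0.0807 and 0.0554) and DIS3L without control library 2 or siMTA1 library 2 (0.0567 and 0.0507), and each of the remaining 10 lost it without 4 or more of the 6 libraries in turn, with adjusted p-values up to 0.157. UPP1, THOC7 and DIS3L also lost it without the filter on low values (0.0624, 0.118 and 0.0864).

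**Figure D4:**
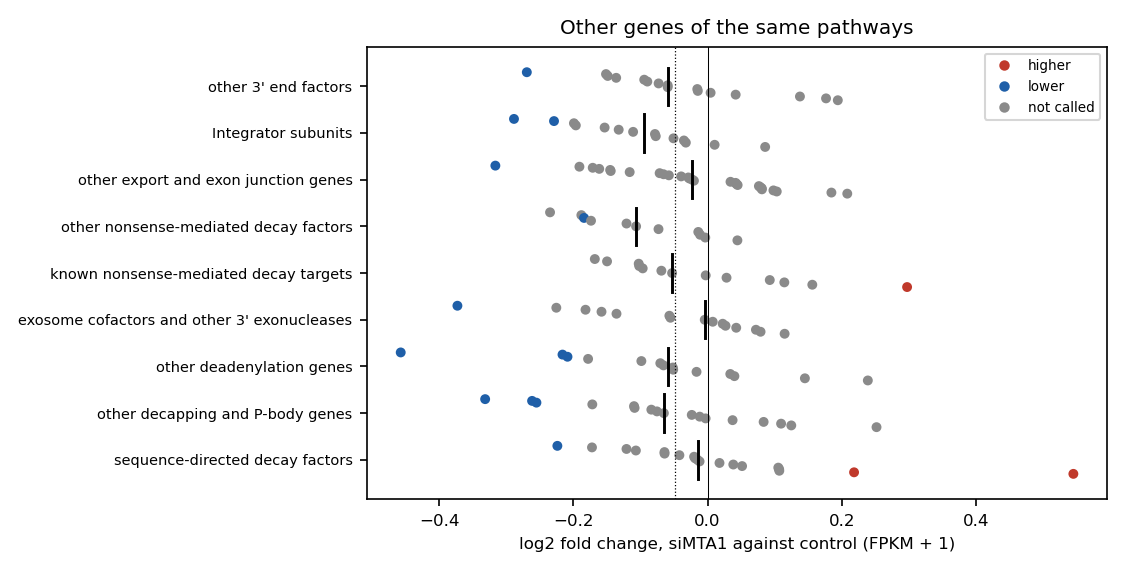
Log2 fold change, siMTA1 against control (horizontal axis), of each gene on 9 lists of further pathway genes, with blue and red points for genes called lower and higher, black bars for the median of each list and a dotted line for the median of all tested genes. ZFP36 at 0.55 lies furthest to the right and BTG2 at -0.46 furthest to the left.

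The 6 lower members had shorter exon models than the rest, with a median of 2459.5 bases and 51.4% G and C, against 6072 bases and 43.5% in the 45 members not called and 4724 bases and 48.8% in all tested genes. CPSF6 had 8082 bases and 37.5%. With the trend of fold change on length and base composition removed, ALYREF, EXOSC4, EXOSC5 and EXOSC6 stayed called lower, while EXOSC1 (adjusted p = 0.0584) and CNOT8 (0.0687) did not. The plot of adjusted p-values by setting shows how near to the threshold the other 5 calls are beside EXOSC4 and EXOSC5.

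**Figure D5:**
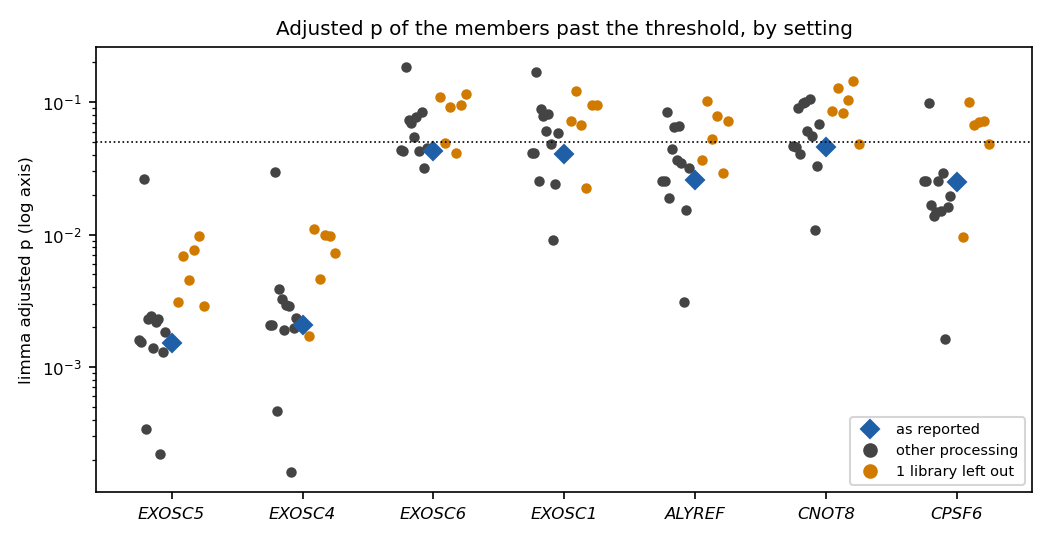
Limma adjusted p (vertical log axis) of the 7 members past the threshold, as reported (blue diamonds), under other processing (grey) and with 1 library left out (orange), with a dotted line at 0.05. All points of EXOSC4 and EXOSC5 lie below the line, up to 0.0296 and 0.0263, and points of the other 5 genes lie on both sides.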

How the data were processed

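PolyA RNA of 3 control and 3 siMTA1 HCT116 libraries was measured. The submitters' processing notes name cutadapt, TopHat2, edgeR and GRCh38, without versions or roles, and no label or header says how reads were assigned to genes. The deposited values are FPKM per gene with 2 decimals, made by the authors, and no counts were used. Depth was read from the steps between low values of genes under 150 bases, by a fit to these same values. Given GENCODE 29 lengths, 95.0% to 96.9% of the lowest values were whole fragments within 0.05 of a fragment plus table rounding. That share is partly built in by the fit.

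Expression was tested as log2(FPKM + 1) in genes averaging 1 FPKM or more across libraries, with limma 3.58.1 in R 4.3.3 (empirical Bayes with a trend on mean expression, two-sided, Benjamini-Hochberg over all tested genes, called at an adjusted p under 0.05). Intervals are 95% intervals from limma. Single ratios and MTA1 were tested by exact permutation. The script was tested on simulated data. Tables and figures used Python 3.11.15, pandas 2.3.3 and matplotlib 3.10.9. Gene positions and exon lengths are those of GENCODE 29, in which all 52 members were found by gene identifier, and promoter windows are RefSeq's in GRCh38.p14, found for 47 of the 52.

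The members and the lists of further pathway genes were chosen with earlier results of these data known. Given in every library are each called member and the member of each role with the highest level or the largest difference, and from each further list up to 3 called genes with the smallest adjusted p are named. The counts of called members, their median and the log2 fold change of each named gene were recomputed under 18 alternatives, or 17 for genes averaging under 5 FPKM, which the stricter filter leaves out: pseudocounts of 0.1 and 0.5, no filter or a mean of at least 5 FPKM, 4 other scalings, limma without the trend or with array weights, a replicate block, removal of a length and base composition trend, and leaving out each library in turn. Ratios of exosome pairs and summed levels were not recomputed and are given library by library or as ranges. A marker of immune cells, PTPRC, was not analysed here.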

Additional observations from a re-analysis of the deposited data

How the results depend on the processing

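The count of members called higher, 1 as reported, was 0 without a filter on low values, 2 with quantile normalization, upper-quartile scaling or median centring, and 5 with array weights. The count called lower, 6 as reported, was 2 without the filter, 3 with quantile normalization or TPM, and 2 with upper-quartile scaling or median centring. Among all 12141 tested genes, the 1463 lower calls became 895 with quantile normalization, 1230 with TPM, 939 with upper-quartile scaling and 866 with median centring. The 744 higher calls became 1011, 832, 1000 and 1051 in that order. Without the filter 33126 genes were tested, of which 297 were called higher and 379 lower, and with array weights 1434 and 2615 were. The median log2 fold change of the members turned from -0.02 to 0.03 with quantile normalization (0.02755), 0.02 with upper-quartile scaling (0.02253) and 0.03 with median centring (0.02535). The median of all tested genes moved in the same direction, from -0.0489 to -0.00723, -0.0112 and -0.0036 in that order. Leaving out 1 library at a time gave 0 to 2 members higher, 2 to 4 lower and a median from -0.05507 to -0.01301. Among all tested genes these runs gave 391 to 633 higher calls and 642 to 1191 lower calls. The cause of these changes was not tested.

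No label says whether the replicate numbers pair the libraries. Deviations from the group means correlated at 0.331, 0.0219 and 0.219 for numbers 1, 2 and 3. Correlations between different numbers were not computed, so these values do not settle it. With a replicate block 3 members were called higher and 7 lower. Calls rose among all 12141 tested genes as well, from 744 to 992 higher and from 1463 to 2039 lower.

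No member that was called, as reported or under an alternative, changed direction. Among uncalled values, 16 members changed sign under some alternative, all with sizes of at most 0.113 as reported. Of the 45 uncalled members, 8 were called under some alternative and 37 under none. At these depths counting error was at most 3.98% for any member.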

Other observations

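Neighbouring genes of the lower members were read within 50 kb, a window and a set of genes chosen after the values had been seen. EXOSC4 had 5 tested neighbours, and all 5 had negative log2 fold changes, as had 61.7% of all tested genes. Of these, CYC1, a respiratory chain subunit (-0.33, limma adjusted p = 0.0125), and OPLAH, an enzyme of glutathione metabolism (-0.31, 0.0151), were called lower, and these calls were lost without siMTA1 library 2 (CYC1, 0.0521) and without control library 2 (OPLAH, 0.0611). EXOSC5 had 4 tested neighbours and none was called. AARS, the alanyl-tRNA synthetase, ends 365 bases from EXOSC6 on the same strand and was called higher (0.23, limma adjusted p = 0.0304), a call kept without control library 3 and lost without each of the other 5 libraries in turn (adjusted p up to 0.103). ZDHHC16, a palmitoyltransferase gene that begins 114 bases from EXOSC1 on the other strand, was called lower (-0.21, limma adjusted p = 0.0262), a call kept without control library 1 and lost without each of the other 5 libraries in turn (adjusted p up to 0.0990). ALYREF had 9 tested neighbours, of which P4HB, a protein disulfide isomerase, was called higher (0.31, limma adjusted p = 0.00643) and kept its call in all 18 alternative settings. CNOT8 had 2 tested neighbours, of which GEMIN5, a subunit of the SMN complex, was called lower (-0.29, limma adjusted p = 0.0176), a call lost without control library 2 (0.0709), siMTA1 library 1 (0.0586) or siMTA1 library 2 (0.0640). Without the filter on low values CYC1, OPLAH, AARS and GEMIN5 also lost their calls (adjusted p = 0.0759, 0.0752, 0.111 and 0.0786). ZDHHC16 also lost its call with quantile normalization, upper-quartile scaling or median centring (0.0765, 0.0607 and 0.0626).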
